A study of Mus musculus with 6 samples.

Results

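The expression of 6 genes that are known to be induced by thyroid hormone (T3), *Klf9*, *Hr*, *Thrsp*, *Bcl3*, *Pdk4* and *Gpd2*, was examined in the inguinal fat pad, a white adipose depot under the skin, of mutant and wild type (Wt) mice. The genes were picked by symbol as known T3-induced genes outside the enzymes of fatty acid synthesis and oxidation, and each was found among the 55573 genes listed. RNA-seq was performed with 1 library of total RNA per mouse on 3 mutant and 3 Wt male mice at 3 months of age, fed regular chow and given no treatment. The mutant mice carried the K283Q/K288R substitutions in the thyroid hormone receptor THRA on both alleles and in every tissue, as a knock-in made with FLP/FRT recombination in C57BL/6NTac embryonic stem cells. The Wt mice were C57BL/6NTac mice bred in the same facility. As the change is present in all cells, a difference in fat cannot be assigned to the fat cells themselves.

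T3 acts through the nuclear receptors THRA and THRB, which sit on thyroid hormone response elements in DNA, mostly as partners of the retinoid X receptors. Without T3 the receptors hold corepressors such as NCOR1 at the target gene, and with T3 these are exchanged for coactivators. The genes examined fall into transcription regulators (*Klf9*, *Hr* and *Bcl3*), a regulator of fat synthesis (*Thrsp*) and mitochondrial enzymes of fuel use (*Pdk4* and *Gpd2*).

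Of the 6 genes, *Hr* was lower in mutant fat, by 2.20-fold as a ratio of means, and the other 5 did not pass the test. *Klf9*, *Pdk4* and *Gpd2* had means that differed by less than the spread between mice, while the mutant mean was above Wt for *Thrsp* and below it for *Bcl3* with overlapping genotypes. The log2 fold change was positive for 3 genes and negative for 3, with a median of -0.07 beside -0.05 over all genes tested. With limma and Benjamini-Hochberg adjustment over 16868 genes, 1 of the 6 passed an FDR of 0.05, where 8.11% of all genes did so in either direction and 2.61% were lower in mutant mice. Of the 1368 genes that passed, 578 share exon bases with a gene on the other strand at 10 or more times their level. Among these 578, 576 were higher in mutant mice, while 1192 such genes were tested. Without them 344 of 15676 genes passed, so that the shares over all genes given here depend on them. The cause was not tested. Values are normalized CPM, reads of each gene scaled to the depth of the library and by a further factor for it, and values of single mice are given in the order of mice 1, 2 and 3, and a log2 fold change is the mutant minus the Wt mean of log2(normalized CPM + 0.5).

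The libraries held 19607423 to 24228381 reads on genes. Adipocyte markers were abundant in every mouse, with 8 genes summing to 13952 to 19924 in Wt and 12047 to 18932 in mutant mice. Skeletal muscle RNA was also present throughout, at 11917 to 26096 in Wt and 17132 to 27575 in mutant mice over 8 markers. Marker sums of mesothelium, the lining of body cavities, were 4.72 to 31.6 in Wt and 37.8 to 75.9 in mutant mice, with 7 of the 8 genes higher by limma and *Upk3b*, *Upk1b*, *Wt1*, *Calb2* and *Bnc1* at 0 in at least 1 Wt mouse. Several lymphocyte markers were very low in mutant mouse 1, with *Cd79a* at 0.524 against 65.2 to 145 in the other mice. In bulk tissue, fewer cells of a type and less RNA per cell cannot be told apart. Over all genes, 928 were higher and 440 lower in mutant mice, so that 67.8% of calls were higher, a share that was 79.4% with scaling to library size only and 82.5% after a correction in which values were centred within 20 bins of exon GC content in each library. *Thra* itself was at 147, 128 and 117 normalized CPM in the Wt mice and at 170, 140 and 137 in the mutant mice (log2 fold change 0.19, adjusted p = 0.404, limma). Its level does not check the labels, since the knock-in changes codons. The clock gene *Nr1d1* overlaps 263 exon bases of *Thra* on the other strand, at 1.99 times the level of *Thra*. The part of *Nr1d1* reads in the *Thra* values was not tested.

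RefSeq promoter windows on GRCm38.p6, from 250 bases before to 50 bases after a start site, were found for 5 of the 6 genes, with 2 windows for *Gpd2*. *Hr* had no entry. The windows of *Klf9* and *Thrsp* are shown because these are textbook T3 target genes, and the 5′ to 3′ sequence is given with matches to the CCAAT motif on either strand in capitals. The *Klf9* window lies at chr19:23140976-23141275 on the + strand and the *Thrsp* window at chr7:97417501-97417800 on the - strand.
Klf9: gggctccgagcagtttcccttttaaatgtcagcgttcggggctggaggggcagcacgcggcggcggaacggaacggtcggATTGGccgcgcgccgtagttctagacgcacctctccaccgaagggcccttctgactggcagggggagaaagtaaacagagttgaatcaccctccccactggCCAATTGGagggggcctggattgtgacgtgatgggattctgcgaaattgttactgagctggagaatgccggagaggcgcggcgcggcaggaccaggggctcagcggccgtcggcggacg
Thrsp: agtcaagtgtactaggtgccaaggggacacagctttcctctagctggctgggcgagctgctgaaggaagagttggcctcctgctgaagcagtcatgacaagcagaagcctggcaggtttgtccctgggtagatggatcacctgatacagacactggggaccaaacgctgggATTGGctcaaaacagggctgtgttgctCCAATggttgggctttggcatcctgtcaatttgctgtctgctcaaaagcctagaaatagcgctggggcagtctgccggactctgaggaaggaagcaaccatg
*Klf9* had 3 CCAAT matches, of which those at -69 on the + strand and -66 on the - strand overlap, and *Thrsp* had 2, at -52 and -79 from the start site. CCAAT occurred in 37.4% of the 32851 windows of the table. The hexamer AGGTCA, the consensus of a single receptor binding site, was searched on both strands and was in 0 of the 6 windows, compared with 16.3% of all windows. The same hexamer as a direct repeat with 4 bases between the copies, known as DR4, was likewise in 0 of the 6 and in 0.0152% of all windows. The windows of *Bcl3* and the second of *Gpd2* held the GC box GGGCGG, with 3 and 2 matches (35.7% of all windows), and that of *Pdk4* held 1 CCAAT. The TATA motif TATAAA had no match in the 6 windows, against 13.6% of all. Nor did the E-box, CACGTG, which 7.15% of all windows held. An absent match says only that these letters are not in this window.

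Per kb of exon, *Thrsp* was the most abundant of the 6 genes in Wt fat, at 199 ± 43.9 (SD, n = 3) normalized CPM per kb. It was followed by *Pdk4* at 35.7 ± 4.34, *Klf9* at 28.8 ± 5.34, *Gpd2* at 18.6 ± 2.74, *Hr* at 10.9 ± 2.15 and *Bcl3* at 8.26 ± 3.09 (SD, n = 3 each). In mutant fat the order of the means was the same, from 285 ± 69.3 for *Thrsp* to 4.97 ± 0.594 for *Hr* and 4.38 ± 1.74 for *Bcl3* (SD, n = 3 each). The neighbours *Pdk4* and *Klf9* overlapped between mice in both genotypes, as did *Hr* and *Bcl3*, so that their order is not resolved. *Klf9* and *Gpd2* did not overlap in either genotype.

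**Figure D1:**
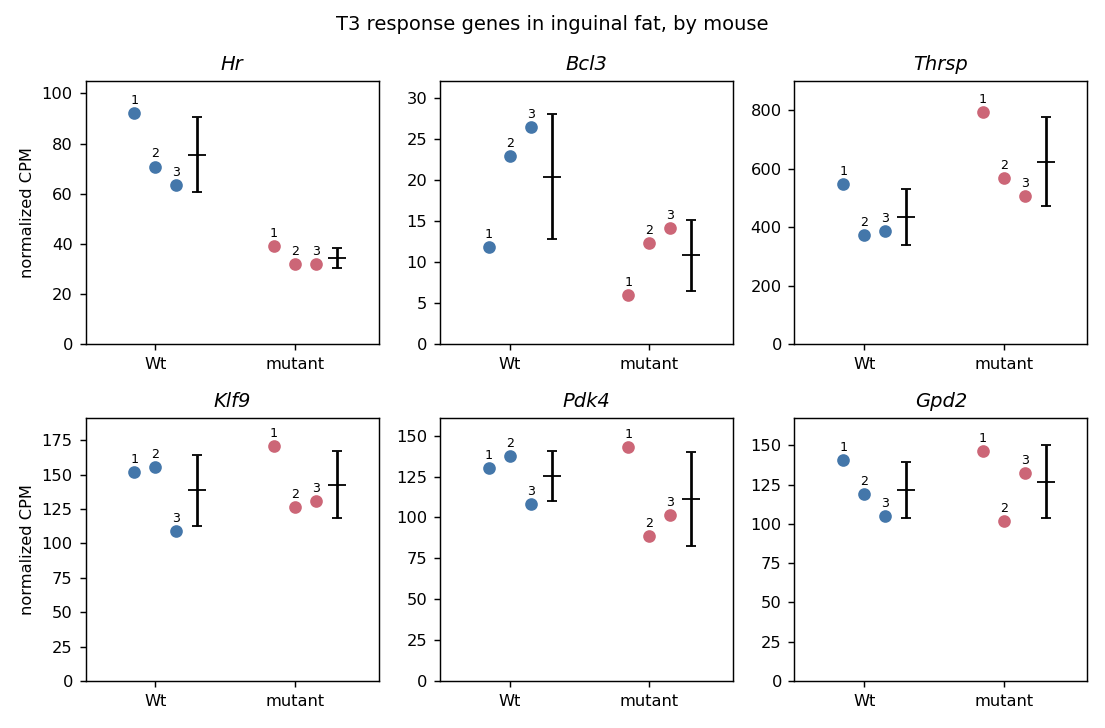
Normalized CPM (y axis, from 0) of the 6 T3 response genes in each Wt (blue) and mutant (red) mouse, numbered 1 to 3 as in the labels, with the mean and SD in black. The genotypes are apart for *Hr*, at 63.7 to 92.3 in Wt and 32.0 to 39.1 in mutant mice, and overlap for the other 5 genes.

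*Hr* (ENSMUSG00000022096, chromosome 14 of GRCm38, 70552212 to 70573548, + strand) encodes hairless, a nuclear corepressor that binds thyroid hormone receptors and is itself induced by T3 in the brain. *Hr* was at 92.3, 70.9 and 63.7 normalized CPM in the Wt mice and at 39.1, 32.0 and 32.0 in the mutant mice. Every mutant mouse was below every Wt mouse, and *Hr* was the only 1 of the 6 genes without overlap, an arrangement seen in this direction for 15.7% of all genes and in either direction for 30.6%. The means were 75.6 ± 14.9 (SD, n = 3) and 34.4 ± 4.11 (SD, n = 3). The log2 fold change was -1.11 (standard error 0.16, 95% interval -1.49 to -0.73, adjusted p = 0.0102, limma), so that the genotypes differed by more than the mice within them. The two-sided exact permutation test gave p = 0.1, the smallest value that 3 mice against 3 allow. By the limma p, *Hr* ranked 487 among all genes tested, and 396 genes had a more negative log2 fold change. *Hr* was counted from 684 to 2203 reads per mouse, so that counting error at the lowest was 3.82%.

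Without mutant mouse 2 the log2 fold change of *Hr* was -1.07 and the adjusted p 0.0532 (limma), so that the call was lost. Without mutant mouse 3, in which *Hr* was at the same level, the values were -1.07 and 0.0428 (limma). The loss is thus not particular to the *Hr* value of mutant mouse 2. The exons of *Hr* have a GC content of 60.3%, above the median of the genes tested, and after a GC correction its log2 fold change was -0.94 (adjusted p = 0.0130, limma). No annotated gene on the other strand shares exon bases with *Hr*. Epithelial and skin markers, 8 genes of a tissue in which *Hr* is known to be expressed, summed to 88.5, 16.0 and 19.5 in the Wt mice, against 19.1, 60.4 and 14.4 in the mutant mice, and *Krt5* was at 0 in mutant mouse 3. These sums overlapped between genotypes. Wt mouse 1 was highest in both the sum and *Hr*, while among mutant mice mouse 2 had the highest sum and mouse 1 the highest *Hr*. *Hr* was at 32.0 in both mutant mouse 2, with the highest sum of its genotype, and mutant mouse 3, with the lowest. The part of such RNA in the *Hr* values was not tested. The mesothelial markers were apart between the genotypes, as *Hr* was, in the opposite direction, and their part in its difference was not tested.

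The relatives of *Hr* by protein family, the JmjC-domain histone demethylases *Kdm3a*, *Kdm3b* and *Jmjd1c*, did not pass the test (log2 fold change -0.08, -0.35 and -0.19, adjusted p = 0.730, 0.280 and 0.612, limma), and 0 of the 3 had an unadjusted p under 0.05 or passed with DESeq2 or the edgeR quasi-likelihood test. The genes most like *Hr* across the 6 mice were *Sipa1l3* and *Noct*, each with a Pearson correlation of 0.996 over log2 values. In both, every mutant mouse lay below every Wt mouse (log2 fold change -0.43 and -0.40, adjusted p = 0.0316 and 0.0560, limma). In all, 289 of 16867 genes correlated with *Hr* above 0.95, a description that includes the genotype difference itself.

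Genes of the circadian clock were also apart between the genotypes, with 10 of 15 core clock and PAR bZIP genes past the FDR, 3 higher and 7 lower in mutant mice. Among all genes tested, 8.11% passed, 5.5% higher and 2.61% lower. *Arntl*, which encodes the activator BMAL1, was at 12.8 ± 2.44 (SD, n = 3) in Wt and 38.8 ± 3.18 (SD, n = 3) in mutant mice, and its partner genes *Npas2* and *Clock* were also higher (log2 fold change 1.93 and 0.58, adjusted p = 0.00166 and 0.0257, limma). *Dbp*, a PAR bZIP output gene of the clock, fell from 115 ± 5.63 to 22.3 ± 3.34 (SD, n = 3 each), a log2 fold change of -2.34 (adjusted p = 0.00122, limma). *Per2* and *Per3*, repressors of the clock, were lower, at -1.39 and -1.21 on the log2 scale (adjusted p = 0.00293 and 0.00417, limma). The hour of tissue collection is not given in the sources used here, and the part of the clock phase in the *Hr* difference was not tested.

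*Klf9* (ENSMUSG00000033863, chromosome 19, 23141226 to 23168134, + strand) encodes a Kruppel-like zinc finger transcription factor that responds to T3 and to glucocorticoids. *Klf9* was at 152, 155 and 109 normalized CPM in the Wt mice and at 171, 127 and 131 in the mutant mice. Both the lowest value, Wt mouse 3, and the highest, mutant mouse 1, were apart from the other mice of their genotype, and the groups overlapped. The means were 139 ± 25.7 and 143 ± 24.5 (SD, n = 3 each). The log2 fold change was 0.05 (standard error 0.18, 95% interval -0.39 to 0.48, adjusted p = 0.887, limma; exact permutation p = 0.9, two-sided), which allows a mutant level from 0.765 to 1.39 times that of Wt. Without Wt mouse 3 the value was -0.12, and without mutant mouse 1 it was -0.09, so that no direction can be given for *Klf9*. The genes most like *Klf9* were *Arhgap5* and *mt-Nd5*, with Pearson correlations of 0.9995 and 0.996 over 6 mice.

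Among 13 relatives of *Klf9* in the Kruppel-like family, 1 was higher and 1 lower in mutant mice, with a median log2 fold change of -0.17. The shares over all genes tested were 5.5% higher and 2.61% lower. *Klf14*, an adipose regulator, rose from 2.76 ± 0.475 to 5.30 ± 0.541 (SD, n = 3 each), a log2 fold change of 0.84 (adjusted p = 0.0338, limma). *Klf10*, which responds to TGF-beta, fell from 61.0 ± 4.22 to 43.0 ± 3.75 (SD, n = 3 each), a log2 fold change of -0.50 (adjusted p = 0.0290, limma). After the GC correction it was -0.58 (adjusted p = 0.0564, limma). Of the 13 genes, 1 passed when mutant mouse 1 was left out, and 0 when any other mouse was. *Klf13*, a close family member of *Klf9*, had a log2 fold change of -0.18 (adjusted p = 0.391, limma).

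Since *Klf9* also responds to glucocorticoids, 12 glucocorticoid-induced genes were examined, of which 5 were higher and 0 lower in mutant mice. Over all genes tested, 5.5% were higher and 2.61% lower. The log2 fold change was positive for 7 of the 12 and negative for 5, with a median of 0.25. *Tsc22d3*, which encodes the glucocorticoid-induced leucine zipper GILZ, rose from 101 ± 7.43 to 151 ± 5.73 (SD, n = 3 each; log2 fold change 0.59, adjusted p = 0.0102, limma). *Fkbp5*, a co-chaperone of the glucocorticoid receptor, had a log2 fold change of 0.34 (adjusted p = 0.0352, limma), and *Sgk1*, a kinase gene, of 0.49 (adjusted p = 0.0394, limma). *Cdkn1a*, the gene of the cell cycle inhibitor p21, had the largest difference of the 12, at 1.45 (adjusted p = 0.00166, limma), and *Dusp1*, a phosphatase gene that *Ergic1* overlaps on the other strand at 2.46 times its level, had 0.69 (adjusted p = 0.0155, limma). After the GC correction 3 of the 12 passed, as *Fkbp5* and *Sgk1* did not (adjusted p = 0.0949 and 0.108, limma), and 2 passed when Wt mouse 1, 2 or 3 was left out. *Per1*, *Mt1* and *Mt2* had log2 fold changes of -0.08, -0.07 and -0.25 and did not pass. *Angptl4* had the lowest value of the 12, -0.61 (adjusted p = 0.115, limma). Its mutant mice were all below the Wt mice, as for 15.7% of all genes.

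*Bcl3* (ENSMUSG00000053175, chromosome 7, 19808462 to 19822770, - strand) encodes a nuclear IkB protein that acts with the NF-kB subunits p50 and p52, which are made from *Nfkb1* and *Nfkb2*. *Bcl3* was at 11.9, 23.0 and 26.5 normalized CPM in the Wt mice and at 5.97, 12.4 and 14.2 in the mutant mice. Mouse 1 was the lowest of each genotype, and Wt mouse 1 lay below mutant mice 2 and 3. The Wt mean of 20.5 ± 7.65 (SD, n = 3) and the mutant mean of 10.8 ± 4.31 (SD, n = 3) gave a log2 fold change of -0.89 (standard error 0.41, 95% interval -1.87 to 0.08, adjusted p = 0.241, limma; exact permutation p = 0.3, two-sided). The spread between mice, 37.4% of the mean in Wt and 39.8% in mutant mice, was the widest of the 6 genes and well above the counting error of 9.37% at the lowest count of 114 reads. Without mutant mouse 1 the log2 fold change was -0.53 (adjusted p = 0.442, limma).

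Markers of lymphocytes, in which *Bcl3* is known to be expressed, followed the same order of mice. The 5 T cell markers summed to 96.9, 248 and 341 normalized CPM in the Wt mice and to 5.50, 144 and 189 in the mutant mice. The 5 B cell markers summed to 976 to 1638 in Wt and 497 to 1352 in mutant mice, and in mutant mouse 1 *Cd79a*, *Ms4a1* and *Pax5* were at 0.524, 0.210 and 0.891, with no marker at 0. *Ighm*, the immunoglobulin heavy chain, made up most of the B cell sum, at 711 to 1062 in Wt and 494, 762 and 833 in the mutant mice, and so carried nearly all of it in mutant mouse 1. Within each genotype, mouse 1 was thus lowest in *Bcl3* and in both sums. The part of lymphocyte RNA in the *Bcl3* values was not tested.

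**Figure D2:**
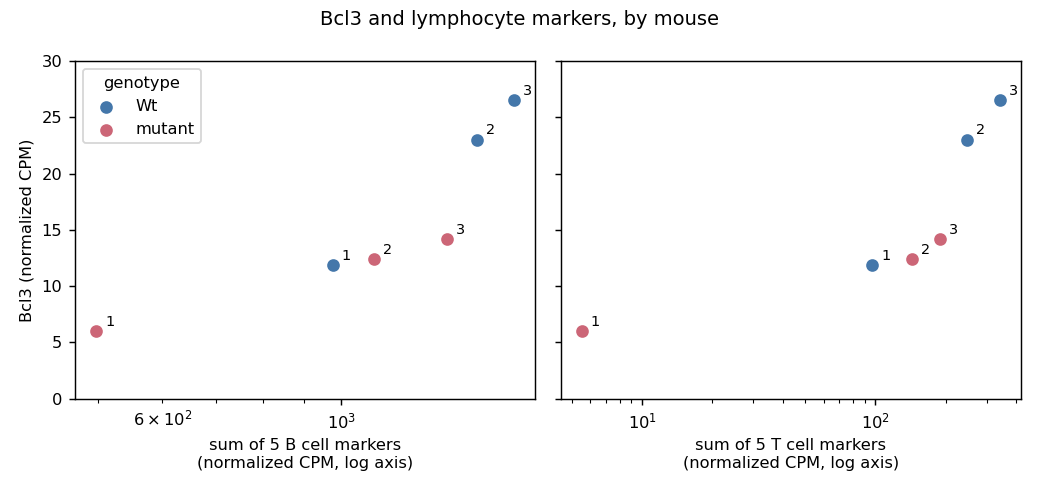
*Bcl3* in normalized CPM (y axis, linear) against the sum of 5 B cell markers (left) and of 5 T cell markers (right), both in normalized CPM on a log axis, with 1 point per mouse, numbered within genotype. Mutant mouse 1 is lowest in all 3 measures, with *Bcl3* at 5.97, the B cell sum at 497, of which *Ighm* is 494, and the T cell sum at 5.50.

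Of the 10 relatives of *Bcl3* among IkB genes and NF-kB subunits, all 10 had a negative log2 fold change, with a median of -0.52. Negative values were found for 9536 of all 16868 genes tested. The test was passed by 1 of the 10, beside 8.11% of all genes. *Rela*, the gene of p65, fell from 86.4 ± 6.06 to 60.5 ± 6.95 (SD, n = 3 each; log2 fold change -0.52, adjusted p = 0.0393, limma). This call was lost after the GC correction (adjusted p = 0.153, limma), and with any single mouse left out 0 of the 10 passed. *Nfkb2* and *Relb*, of the noncanonical NF-kB pathway, differed by -0.81 and -0.80 on the log2 scale (adjusted p = 0.257 and 0.266, limma), near the value of *Bcl3*. *Nfkbie* and *Nfkbid* had -1.33 and -1.36 (adjusted p = 0.353 and 0.370, limma), and *Nfkbid* was at 0.838 in mutant mouse 1 against 7.16 to 18.4 in the other mice. The lymphocyte markers above were lowest in that mouse too. The genes most like *Bcl3* were *Serp2* and *Vps37b* (Pearson correlation 0.999 each over 6 mice). Above 0.95 there were 1194 of 16867 genes, more than for any other of the 6.

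*Thrsp* (ENSMUSG00000035686, chromosome 7, 97412938 to 97417730, - strand) encodes Spot 14, a nuclear protein of lipogenic tissues that promotes fatty acid synthesis. *Thrsp* was at 547, 374 and 388 normalized CPM in the Wt mice and at 796, 568 and 508 in the mutant mice. Mutant mouse 3 was below Wt mouse 1, so that the groups overlapped in this pair only, and mouse 1 was the highest of each genotype. The Wt mean was 436 ± 96.0 (SD, n = 3) and the mutant mean 624 ± 152 (SD, n = 3). The log2 fold change was 0.51 (standard error 0.22, 95% interval -0.02 to 1.05, adjusted p = 0.227, limma; exact permutation p = 0.2, two-sided), which allows a mutant level from 0.983 to 2.07 times that of Wt. Without mutant mouse 1 the log2 fold change was 0.32 (adjusted p = 0.436, limma). With 7684 to 15185 reads per mouse, the counting error of *Thrsp* was at most 1.14%.

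*Mid1ip1*, a paralog of *Thrsp*, encodes a partner of Spot 14 that activates acetyl-CoA carboxylase. *Mid1ip1* was at 49.9, 48.2 and 41.7 normalized CPM in the Wt mice and at 78.3, 65.5 and 58.4 in the mutant mice. The mutant mice were all above the Wt mice, as for 14.9% of all genes, but the log2 fold change of 0.52 did not pass the FDR (adjusted p = 0.0635, limma). It passed after the GC correction (adjusted p = 0.0435, limma). *Me1*, malic enzyme, a classic T3-induced gene that supplies NADPH for fatty acid synthesis, had a log2 fold change of 0.53 (adjusted p = 0.242, limma). The genes most like *Thrsp* were *Rnf7* and *S100a16* (Pearson correlation 0.998 each over 6 mice).

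*Pdk4* (ENSMUSG00000019577, chromosome 6, 5483351 to 5496309, - strand) encodes a kinase that inhibits the pyruvate dehydrogenase complex and so spares glucose. *Pdk4* was at 130.5, 137 and 108 normalized CPM in the Wt mice and at 143, 88.7 and 102 in the mutant mice. The mutant group held both the highest and the lowest value, and the means were 125 ± 15.2 and 111 ± 28.5 (SD, n = 3 each). The log2 fold change was -0.19 (standard error 0.19, 95% interval -0.65 to 0.27, adjusted p = 0.553, limma; exact permutation p = 0.5, two-sided). It was -0.39 without mutant mouse 1 and -0.05 without mutant mouse 2.

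Of 11 other genes of pyruvate dehydrogenase and its regulation, 0 passed the test with limma, DESeq2 or the edgeR quasi-likelihood test, 0 had an unadjusted p under 0.05, and their median log2 fold change was 0.25. *Pdk1*, *Pdk2* and *Pdk3*, the other kinases of the complex, had log2 fold changes of 0.05, -0.10 and 0.33. *Pdha1*, the catalytic subunit, had the highest value of the list, at 0.38 (adjusted p = 0.291, limma), and *Pdp1*, a phosphatase that reactivates the complex, had 0.37 (adjusted p = 0.218, limma). For *Pdk3* and *Pdp1*, every mutant mouse lay above every Wt mouse, as for 14.9% of all genes.

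*Gpd2* (ENSMUSG00000026827, chromosome 2, 57237635 to 57370719, + strand) encodes the mitochondrial glycerol-3-phosphate dehydrogenase, which passes electrons of cytosolic NADH to the respiratory chain. *Gpd2* was at 141, 119 and 105 normalized CPM in the Wt mice and at 147, 102 and 132 in the mutant mice. The ranges of the genotypes nearly coincided, with means of 122 ± 18.0 and 127 ± 23.1 (SD, n = 3 each). The log2 fold change was 0.06 (standard error 0.17, 95% interval -0.35 to 0.46, adjusted p = 0.858, limma; exact permutation p = 0.8, two-sided), which allows a mutant level from 0.784 to 1.38 times that of Wt. The sign changed after the GC correction (-0.039), without Wt mouse 3 (-0.045) and without mutant mouse 1 (-0.058), so that no direction can be given.

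Of 10 partners of *Gpd2* in the glycerol phosphate and malate-aspartate shuttles, 0 passed the test with limma, DESeq2 or the edgeR quasi-likelihood test, 1 had an unadjusted p under 0.05 (*Slc25a12*), and the median log2 fold change was -0.02. *Gpd1*, the cytosolic enzyme of the glycerol phosphate shuttle, was at 1318 ± 289 (SD, n = 3) in Wt and 1230 ± 315 (SD, n = 3) in mutant mice, a log2 fold change of -0.11 (adjusted p = 0.805, limma). *Slc25a12*, a mitochondrial aspartate-glutamate carrier gene, had the highest value of the list, 0.44 (adjusted p = 0.181, limma). Muscle also expresses *Pdk4* and *Gpd2*, and the muscle marker sum was 26096, 22726 and 11917 in the Wt mice, against 27575, 17132 and 27401 in the mutant mice. Wt mouse 3 was lowest of its genotype in this sum and in both genes, and mutant mouse 2 likewise. *Klf9* was also lowest in these mice, at 109 in Wt mouse 3 and 127 in mutant mouse 2. The part of muscle RNA in these values was not tested. *Scfd2* and *Map2k3* were most like *Pdk4* and *Gpd2*, with Pearson correlations of 0.986 and 0.988 over 6 mice.

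**Figure D3:**
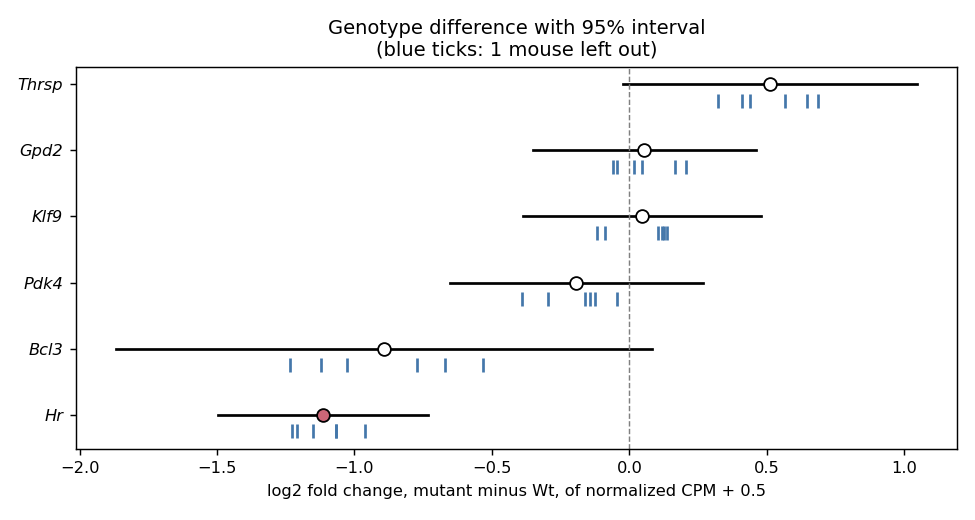
Log2 fold change (x axis, mutant minus Wt) of each gene with its 95% interval, where the filled point passed the FDR of 0.05 with limma and blue ticks give the value with each mouse left out in turn. The interval of *Hr*, -1.49 to -0.73, lies below 0, and the intervals of the other 5 genes include 0.

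Of 16 other genes known to be induced by T3, 13 had enough reads to be tested, and *Dio1*, *Myh6* and *Fgf21* did not. With limma, 0 were higher and 1 was lower in mutant mice, and their median log2 fold change was 0.07. Of all genes tested, 5.5% were higher and 2.61% lower. *Ucp1*, the uncoupling protein of thermogenic fat, was at 15.5, 7.39 and 15.3 normalized CPM in the Wt mice and at 3.46, 3.23 and 3.51 in the mutant mice (log2 fold change -1.69, adjusted p = 0.0187, limma). Every mutant mouse was below every Wt mouse for *Ucp1*, as for *Hr*. *Ucp1* is also 1 of 6 markers of brown or beige fat, which summed to 59.2 to 91.6 in Wt and 41.3 to 64.7 in mutant mice. Of the 5 markers tested, 2 had a positive and 3 a negative log2 fold change, with a median of -0.51. The part of thermogenic fat cells in the *Ucp1* values was not tested. Apart between the genotypes but short of the FDR were *Rcan2* and *Atp2a2*, higher in mutant mice (log2 fold change 0.59 and 0.46, adjusted p = 0.110 and 0.0718, limma). The same held for *Ucp3*, *Pck1* and *Angptl4*, lower with -0.52, -0.83 and -0.61 (adjusted p = 0.106, 0.127 and 0.115, limma). Genotypes were apart in this way for 14.9% of all genes with mutant mice higher and for 15.7% with mutant mice lower. With 1 mouse left out, 0 of the 13 passed without Wt mouse 1, Wt mouse 3, mutant mouse 2 or mutant mouse 3, and 1 passed without either other mouse. *Slc2a4*, the insulin-responsive glucose transporter GLUT4, and *Ppargc1a* both had a log2 fold change of 0.07.

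Of 20 genes of T3 receptors, partners, cofactors, deiodinases and transporters, 17 were tested, with a median log2 fold change of 0.09. In mutant mice 0 of the 17 were higher and 1 was lower, where 5.5% of all genes were higher and 2.61% lower. *Rxrb*, a retinoid X receptor, fell from 46.0 ± 3.06 to 32.6 ± 3.76 (SD, n = 3 each; log2 fold change -0.50, adjusted p = 0.0432, limma). It did not pass after the GC correction (adjusted p = 0.236, limma). Of the 17 genes, 0 passed with limma-voom, with the edgeR quasi-likelihood test or without any 1 mouse other than mutant mouse 3. *Thrb*, the other T3 receptor, and *Ncor1* differed by 0.26 and -0.18 on the log2 scale (adjusted p = 0.374 and 0.245, limma). The lists share *Dio1* and *Thrb* here and *Angptl4* and *Per1* between others, and *Ucp1* and *Dio2* are also brown or beige fat markers, so that their counts are not independent.

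**Figure D4:**
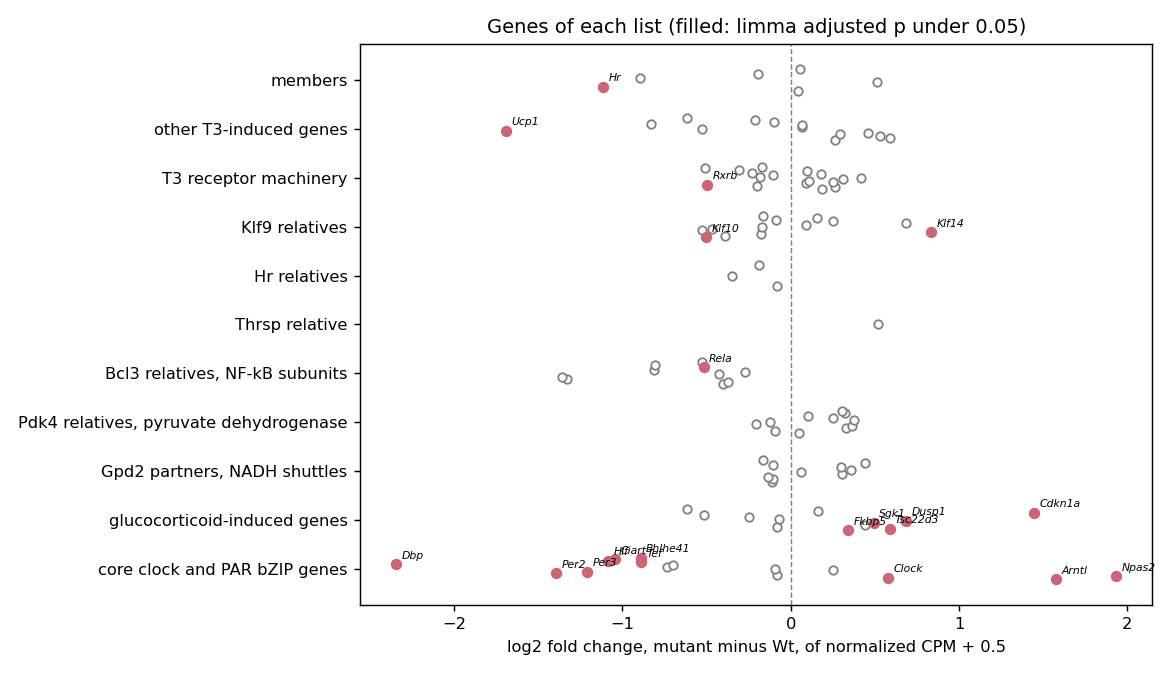
Log2 fold change (x axis, mutant minus Wt) of the tested genes of each list (rows, with the 6 T3 response genes as members), 1 point per gene, where filled points with names passed an FDR of 0.05 with limma. Calls lie on both sides of 0, from *Dbp* at -2.34 to *Npas2* at 1.93, and all 10 NF-kB genes lie below 0, as do 9536 of all 16868 genes tested.

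Within each genotype, the order of the mice was shared by some of the genes. Mouse 1 was highest of both genotypes for *Hr*, *Thrsp* and *Gpd2*, and lowest of both for *Bcl3*. Adipocyte markers were also highest in mouse 1 of each genotype, at 19924 and 18932. The ratio of the highest to the lowest mouse of a genotype ranged from 1.22 for *Hr* in mutant mice to 2.37 for *Bcl3* in mutant mice, and the part of cell composition in this spread was not tested.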

How the data were processed

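RNA was isolated with the Qiagen RNeasy Plus kit, and the paper's methods assign library construction, sequencing and analysis to a core facility. The submitters' processing notes name Bowtie2 2.1.0, RSEM 1.2.15, edgeR and mm10, with no roles, and the use of strand is not given in the sources used here. Per gene, the authors deposited a normalized signal for every library, CPM divided by a factor of 0.962 to 1.11 per library, summing to 901654 to 1039031. Dividing by the value of 1 read gave whole reads for 100.0% of nonzero values (tolerance 0.01), and 3 reads equal 0.126 to 0.157. This floor covers counting error only. Genes were matched by identifier, since 27 symbols had become dates. Of these, 99.8% were in GENCODE M21 (GRCm38), used for coordinates, exon length and GC content.

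Genotypes were compared with R 4.3.3 and limma 3.58.1 on log2(value + 0.5), using its mean-variance trend and an FDR of 0.05. The 16868 genes tested had passed filterByExpr (edgeR 4.0.16) on those reads. Fold changes on this scale are understated for low genes. The test was checked on simulated data, in which the reads of each gene and library were drawn independently. That check does not cover differences between mice that many genes share. Libraries of a genotype came from different mice, and their reads differed by more than sampling noise (chi-square of 19.3 to 64.9 per degree of freedom). The genes and lists were chosen with earlier results of these data known. Some genes of the lists are not reported here and are left out of their counts. Named genes are the 6 genes, those of the lists and the most alike by Pearson correlation. The alternatives were other scalings, tests (DESeq2 1.42.0 included), filters and pseudocounts, a replicate block, an FDR of 0.1 and fits with 1 mouse left out. The GC correction (20 bins) and the removal of genes that an abundant gene overlaps in antisense were chosen after seeing the data. Python 3.11.15, pandas 2.3.3, SciPy 1.17.1 and Matplotlib 3.10.9 served the other steps.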

Additional observations from a re-analysis of the deposited data

How the results depend on the processing

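*Hr* passed the FDR of 0.05 in 19 of 20 alternative fits, with log2 fold changes of -1.23 to -0.94. With 1 mouse left out at a time it lay between -1.23 and -0.96, and it failed without mutant mouse 2 (-1.07, adjusted p = 0.0532, limma), where 0 of the 6 genes passed, with 1 in the other such fits. *Klf9* lay between -0.12 and 0.14 and *Gpd2* between -0.058 and 0.21 when 1 mouse was left out. *Klf9* turned negative without Wt mouse 3 (-0.12) and mutant mouse 1 (-0.09), and *Gpd2* did so without Wt mouse 3 (-0.045), without mutant mouse 1 (-0.058) and after the GC correction with or without the block (-0.039). The cause was not tested. *Thrsp*, *Bcl3* and *Pdk4* kept their sign throughout, and no fit without the block called any of these 5 genes.

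No pairing of mice is given in the labels. The deviations of mice numbered 1, 2 and 3 from their genotype means correlated between genotypes at 0.69, 0.06 and 0.56. Whether mice of the same number were handled together was not tested. Mutant mouse 2 correlated best with Wt mouse 3 (0.54). With the replicate block, 3 of the 6 genes passed, *Hr* (-1.11), *Thrsp* (0.51) and *Bcl3* (-0.89), with adjusted p of 0.00479, 0.0112 and 0.00638 (limma). With the block and the GC correction, 3 passed as well (*Hr* -0.94, *Thrsp* 0.51, *Bcl3* -0.69). The block gave 4063 genes past the FDR, 42.7% of them higher in mutant mice, and 3659 with the GC correction. It gave 7 of the other T3-induced genes, 6 of the receptor machinery, 5 *Klf9* relatives, 1 *Hr* relative, *Mid1ip1* (1), 7 NF-kB genes, 2 pyruvate dehydrogenase genes and 1 *Gpd2* partner. With the GC correction added, these were 6, 6, 6, 2, 1, 6, 0 and 1.

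Without the block, the count of 1368 genes was 2118 with DESeq2, 2263 at an FDR of 0.1, 598 with at least 10 reads in every mouse, 344 without genes under an abundant gene on the other strand (51.5% of them higher) and 545 to 1043 with 1 mouse left out. Other T3-induced genes past the FDR were 6 with DESeq2, 3 with library size only, 2 at an FDR of 0.1 and 0 to 1 with 1 mouse left out. The receptor machinery gave 0 to 1 with 1 mouse left out, and 0 after the GC correction, with DESeq2 size factors, TMM, library size only, voom, quasi-likelihood, no filter, the filter of 10 reads and without the other-strand genes. *Klf9* relatives were 1 after the GC correction, 1 with no filter, 0 without the other-strand genes and 0 to 1 with 1 mouse left out. *Mid1ip1* passed (1) with DESeq2, library size only, the GC correction and an FDR of 0.1. NF-kB genes were 0 in the fits with DESeq2 size factors, TMM, library size only, voom, quasi-likelihood, no filter, 10 reads, the GC correction, without the other-strand genes and with any mouse left out. Glucocorticoid-induced genes were 3 after the GC correction, with no filter, with 10 reads and without the other-strand genes, and 2 to 3 with 1 mouse left out. The clock genes stayed between 7 and 12. Counting error was at most 9.37% for the 6 genes, while 3 mice per genotype leave the intervals of all but *Hr* including 0.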
